A study of Homo sapiens with 9 samples.

Results

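Steroid sulfatase, the steroid sulfotransferase SULT2B1, the steroid reductases SRD5A1 and SRD5A3, the 17-beta-hydroxysteroid dehydrogenase family genes HSD17B4, HSD17B11 and HSD17B12, and P450 oxidoreductase (POR) were followed in LAPC4 cells, a human prostate cancer line. These 8 genes were chosen by name as the enzymes that take sulfate off steroids or put it on, reduce or oxidize them, or supply electrons to the P450s that make them. All 8 were among the 60325 gene rows counted and all 8 were among the 16796 genes with enough counts to be tested. RNA sequencing gave 9 libraries at day 30, in 3 groups of 3: control cells, cells labelled as a knockdown of UGT2B28, and cells labelled as a rescue. UGT2B28 encodes a UDP-glucuronosyltransferase that conjugates androgens with glucuronic acid. By the design text the rescue cells overexpressed UGT2B28 on top of the knockdown, so that by their labels both of these groups carry it. Puromycin at 3 ug/mL selected the knockdown and G418 at 1 mg/mL the rescue, and the labels name no drug for the controls, so that an effect of selection and one of the label cannot be told apart. All libraries come from a single cell line, and the labels do not say whether replicates were separate cultures, whether the lines were clones, or what construct drives the rescue, so a p-value here speaks only of how far these libraries spread, and that spread may be technical.

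Androgens circulate largely as sulfated precursors. STS hydrolyses the sulfate from dehydroepiandrosterone sulfate and other steroid sulfates, and sulfotransferases such as SULT2B1 add it back. Freed precursors become testosterone and dihydrotestosterone through hydroxysteroid dehydrogenases and the 5-alpha-reductases, and in prostate cancer SRD5A1 is the isoenzyme that is known to take over from SRD5A2. Several genes of these families also act outside steroid metabolism: SRD5A3 makes dolichol for N-glycosylation, HSD17B4 is the multifunctional enzyme of peroxisomal beta-oxidation, HSD17B11 sits on lipid droplets and HSD17B12 is the ketoacyl reductase of fatty acid elongation.

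The start-site windows of 3 members are shown because these took different courses through the knockdown-labelled libraries: STS was high in all of them, SULT2B1 in 2 of them and SRD5A3 most of all in the third. Each window runs from 250 bases before to 50 bases after a start site in RefSeq (GRCh38.p14), 5′ to 3′ on the plus strand, at chrX:7219206-7219505 for STS, chr19:48551922-48552221 for SULT2B1 and chr4:55345992-55346291 for SRD5A3. Capitals mark matches on either strand to 6 motifs: the hexamer AGAACA of steroid hormone response elements, the GC box GGGCGG bound by Sp factors, the E-box CACGTG bound by bHLH proteins, the CCAAT box of the NF-Y factor, the TATAAA box of core promoters, and CGGAAG, an ETS factor core. The motifs do not overlap within these windows.
STS: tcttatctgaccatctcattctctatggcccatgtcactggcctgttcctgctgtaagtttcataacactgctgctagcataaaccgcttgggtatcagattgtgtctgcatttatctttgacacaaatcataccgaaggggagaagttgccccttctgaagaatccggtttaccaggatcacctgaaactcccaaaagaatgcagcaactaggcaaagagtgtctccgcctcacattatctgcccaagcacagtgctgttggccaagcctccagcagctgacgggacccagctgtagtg
SULT2B1: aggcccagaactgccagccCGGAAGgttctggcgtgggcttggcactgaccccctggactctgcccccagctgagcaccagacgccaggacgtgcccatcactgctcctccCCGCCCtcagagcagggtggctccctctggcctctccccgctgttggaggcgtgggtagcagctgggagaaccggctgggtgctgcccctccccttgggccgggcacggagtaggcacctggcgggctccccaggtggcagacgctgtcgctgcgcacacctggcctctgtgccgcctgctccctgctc
SRD5A3: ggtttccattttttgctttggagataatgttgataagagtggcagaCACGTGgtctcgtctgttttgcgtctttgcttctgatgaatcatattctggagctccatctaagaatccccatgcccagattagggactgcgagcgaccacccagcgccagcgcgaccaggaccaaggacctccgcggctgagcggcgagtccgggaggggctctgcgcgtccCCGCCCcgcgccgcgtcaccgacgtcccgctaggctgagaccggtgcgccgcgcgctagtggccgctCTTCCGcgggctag
The STS window, the only one of its 5 RefSeq windows whose start site is also the GENCODE start of the gene, held none of the 6 motifs and 5 CpG dinucleotides, against a median of 14 over all 35116 windows. The other STS windows, not printed, held 1 to 23 CpG and each matched at least 1 motif, the hormone response hexamer in 2 of them. SULT2B1 held 1 GC box, 1 ETS core and 15 CpG. SRD5A3 held 1 GC box, 1 E-box, 1 ETS core and 31 CpG. A GC box is present in 45% of all windows, an ETS core in 19.5%, an E-box in 7.26%, the hormone response hexamer in 14.8%, a CCAAT box in 34.6% and a TATA box in 11.5%. A match says only that these letters are there. Windows were found for 6 of the 8 members, and HSD17B12 and POR were not among them.

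The members lie on 6 chromosomes in GRCh38 (GENCODE 29). STS is at chromosome X 7219456 to 7354810, SULT2B1 at chromosome 19 48552075 to 48599425, SRD5A1 at chromosome 5 6633343 to 6674386, SRD5A3 at chromosome 4 55346109 to 55373096, HSD17B4 at chromosome 5 119452443 to 119637199, HSD17B12 at chromosome 11 43680558 to 43856617 and POR at chromosome 7 75899200 to 75986855, all on the plus strand. HSD17B11 is at chromosome 4 87336610 to 87391386 on the minus strand. No source used here states whether the counting was stranded, so reads where an antisense gene overlaps a member may be misplaced or set aside as ambiguous. Same-strand overlaps carry this limit either way. The largest were AC068205.2, over 6.25% of the HSD17B12 exon bases, and AC108516.2, over 4.8% of those of HSD17B11. Antisense genes cover 12.1% and 3.69% of the HSD17B12 exon bases, and SRD5A3-AS1 covers 4.48% of those of SRD5A3. SRD5A3-AS1 had 51 to 130 counts a library, against 50 to 105 for SRD5A3, which makes the level of SRD5A3 uncertain by as much as these reads are misplaced.

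The libraries held 8132206 to 14185252 counts on genes. UGT2B28 mRNA did not bear out the knockdown label. Its CPM (counts per 1000000 on a library's tested genes, after TMM scaling) were 5.12, 5.10 and 7.80 in the controls, 8.48, 6.18 and 3.05 under the knockdown label and 75.1, 92.9 and 53.6 in the rescue libraries. The log2 fold change of the knockdown-labelled group against control was -0.04 (edgeR adjusted p = 0.957), 0.25 without its library 3 and -1.01 with library 3 alone, neither of which passed (edgeR adjusted p = 0.512 and 0.134). The second group is therefore called knockdown-labelled throughout. All 10 luminal prostate markers were present, among them KLK3, the prostate-specific antigen gene, at 646 to 1457 CPM, and their summed level was 4888 to 5918 CPM in control, 4280 to 6954 CPM in knockdown-labelled and 5677 to 6677 CPM in rescue libraries. The 3 basal markers summed to at most 3.71 CPM in any library. PTPRC, the leukocyte marker, had 0 counts in all 9, which allows up to 3 counts a library. Of the other leukocyte and endothelium markers, CD68 was at 2.94 to 10.4 CPM and VWF at 1.02 to 4.72 CPM. CD3E and PECAM1 had 0 counts in 6 libraries each, and at most 0.233 and 0.349 CPM. Of the 5 stromal markers, 4 were tested. The sum of all 5 ranged from 16.4 to 110 CPM over all libraries, with 31.8 to 35.5 CPM in the knockdown-labelled ones, and COL1A1 alone was at 14.3 to 76.7 CPM.

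Knockdown-labelled library 3 stood apart from the other two of its group. Mitochondrial genes took 15.1% and 15.8% of the counts in knockdown-labelled libraries 1 and 2, 10.2% in library 3, and 5.79% to 8.57% in the control and rescue libraries. Ribosomal protein genes took 11.7% and 11.2% in libraries 1 and 2, 6.43% in library 3, and 6.74% to 8.11% elsewhere. The TMM factors were 0.793 and 0.800 in libraries 1 and 2, 1.11 in library 3 and 1.03 to 1.09 in the others. Differences in gene counts between libraries 1 and 2 were 3.48 times what sampling alone gives (chi-square per degree of freedom), but 65.2 and 72.0 times between either of them and library 3. The part of these shares in the results below was not tested. Because the group is split, the fold changes that turn on library 3 are given with and without it.

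The 8 genes spanned a wide range of levels. Per kilobase of exon, in RPKM from the scaled counts, POR was at 14.0 ± 0.416 (SD, n = 3) in the controls and HSD17B12 at 11.5 ± 1.15. SULT2B1 followed at 8.22 ± 1.05, HSD17B4 at 7.41 ± 0.264 and SRD5A1 at 6.78 ± 0.0892. HSD17B11 at 1.74 ± 0.181, SRD5A3 at 1.36 ± 0.0356 and STS at 0.212 ± 0.0347 lay far below. The control libraries of SULT2B1 and HSD17B4 overlapped, and those of the other neighbours in this order did not. Taking the longest transcript of each gene as its length kept this order in the controls but raised the levels of 7 of the 8, POR to between 32.8 and 34.8 RPKM. In the knockdown-labelled group HSD17B12 (19.8 ± 3.74) had a higher mean than POR (14.8 ± 4.48), and in the rescue group POR (14.0 ± 0.842) was again above HSD17B12 (11.4 ± 0.43). The mRNA of each gene is compared across groups in CPM from here on, and in a bulk culture fewer expressing cells and less RNA per cell cannot be told apart.

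**Figure D1:**
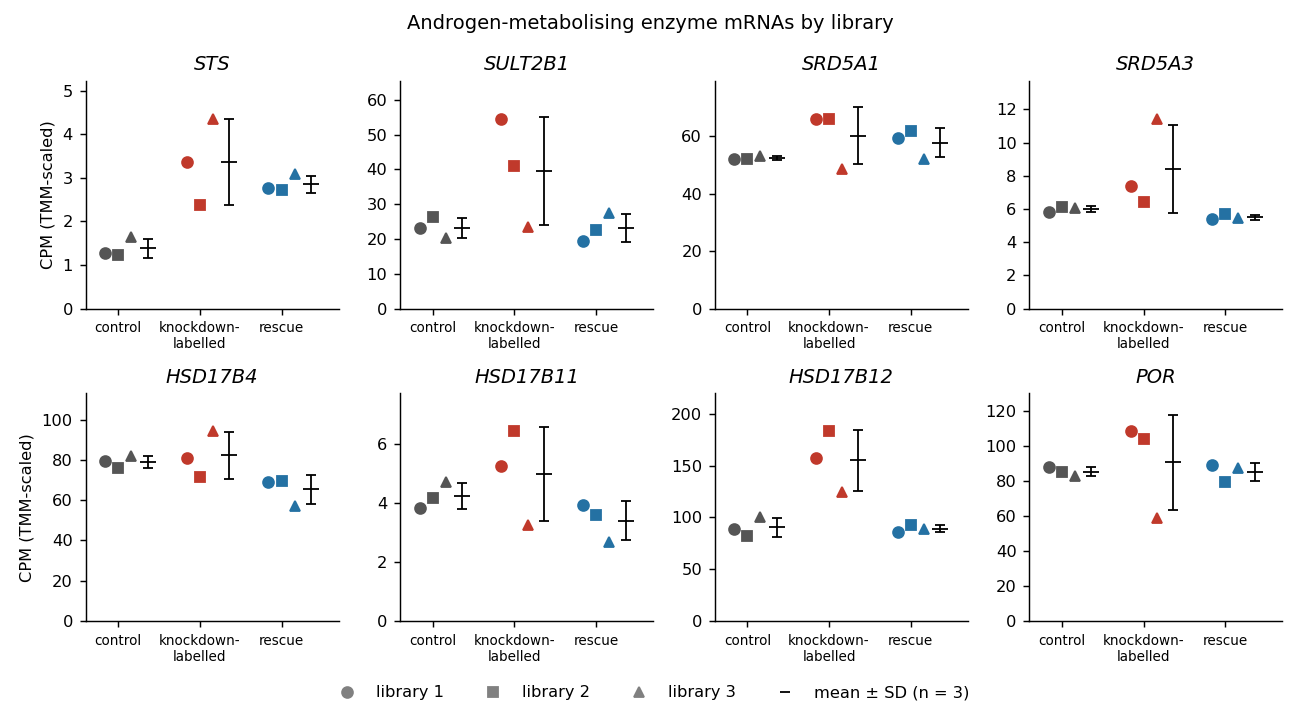
Levels of the 8 genes in scaled CPM, 1 panel per gene with its own linear axis from 0, with 1 point per library (circle, square and triangle for libraries 1, 2 and 3) and the mean ± SD of each group of 3 in black. The HSD17B12 points of the knockdown-labelled group, 124.7 to 183.2 CPM, lie above all its other points, and knockdown-labelled library 3 is the lowest POR point, at 59.2 CPM.

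STS mRNA was scarce and was higher in both selected groups than in the controls, by a margin that did not pass the adjusted test. STS is the membrane enzyme of the endoplasmic reticulum that desulfates steroids. It was at 1.28, 1.22 and 1.64 CPM in the controls, 3.36, 2.38 and 4.35 CPM in the knockdown-labelled and 2.77, 2.71 and 3.08 CPM in the rescue libraries. No control library reached any library of the other groups, and the knockdown-labelled and rescue libraries overlapped. These levels rest on 11, 12 and 16 counts in the controls, 25, 27 and 40 in the knockdown-labelled and 42, 31 and 31 in the rescue libraries. Knockdown-labelled against control gave a log2 fold change of 1.27 (95% confidence interval 0.49 to 2.05, SE 0.353, edgeR adjusted p = 0.109). Rescue against control it was 1.04 (SE 0.351, interval 0.26 to 1.81, edgeR adjusted p = 0.315). Rescue against knockdown-labelled it was -0.23 (edgeR adjusted p = 0.685), 0.0017 without knockdown-labelled library 3 (edgeR adjusted p = 0.998) and -0.59 with it alone (edgeR adjusted p = 0.371). The DESeq2 Wald test called STS higher in the knockdown-labelled group (adjusted p = 0.0348). Limma-voom with sample quality weights, which gives less weight to libraries that stray, called it higher than control in both the knockdown-labelled and the rescue group (adjusted p = 0.0279 and 0.0477). Knockdown-labelled library 3 alone also passed against the controls, with a log2 fold change of 1.62 (edgeR adjusted p = 0.0305), while without it the value was 1.03 (edgeR adjusted p = 0.0653).

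SULT2B1, which sulfates cholesterol and pregnenolone-type steroids, followed the split within the knockdown-labelled group. It was at 23.1, 26.2 and 20.3 CPM in the controls, 54.5, 41.0 and 23.5 CPM in the knockdown-labelled and 19.6, 22.7 and 27.5 CPM in the rescue libraries. Libraries 1 and 2 of the knockdown-labelled group were above all others, and library 3 was among the control and rescue values. Over all 3, the log2 fold change was 0.77 against control (SE 0.262, interval 0.19 to 1.35, edgeR adjusted p = 0.158) and -0.77 for rescue against knockdown-labelled (SE 0.261, edgeR adjusted p = 0.0848). Without library 3 SULT2B1 rose by 1.03 against control (edgeR adjusted p = 7.83e-05) and the rescue group was lower by a log2 fold change of -1.04 (edgeR adjusted p = 4.46e-05). With library 3 as the only knockdown-labelled library the values were -0.01 (edgeR adjusted p = 0.988) and 0.00 (edgeR adjusted p = 0.999). Rescue and control means were both 23.2 CPM.

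The ratio of STS to SULT2B1 within a library does not depend on scaling. On the log2 scale, with 0.5 added to each count, it was -4.11, -4.36 and -3.59 in the controls, -3.99, -4.08 and -2.42 in the knockdown-labelled and -2.81, -3.04 and -3.14 in the rescue libraries. All 3 rescue libraries thus lay above all 3 controls, with a mean difference of 1.02 (two-sided exact permutation p = 0.1, the smallest that 3 against 3 allows, and 0.3 adjusted over 12 ratio comparisons). In the knockdown-labelled group STS was above every control in each library and SULT2B1 only in libraries 1 and 2, and the ratio of library 3 was above all other libraries. The difference from control was 0.52 there (exact permutation p = 0.5), and -0.014 without library 3.

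SRD5A1, which reduces the steroid A ring in the main route to dihydrotestosterone in prostate cancer cells, did not pass in edgeR with all libraries. It was at 51.9, 51.9 and 53.1 CPM in the controls, 65.9, 66.0 and 48.6 CPM in the knockdown-labelled and 59.3, 61.8 and 52.3 CPM in the rescue libraries. In scaled CPM the knockdown-labelled libraries fell on both sides of the controls. Its log2 fold changes were 0.20 (edgeR adjusted p = 0.458), -0.06 (adjusted p = 0.822) and 0.14 (adjusted p = 0.793) for knockdown-labelled against control, rescue against knockdown-labelled and rescue against control. Without knockdown-labelled library 3, SRD5A1 rose by 0.33 against control (edgeR adjusted p = 0.0158), where 32.9% of all genes passed. With all libraries and sample quality weights, which give less weight to libraries that stray, limma-voom called it higher (0.32, adjusted p = 0.010), with 38.9% of all genes. Without TMM scaling, the knockdown-labelled libraries were at 52.2, 52.7 and 53.9 CPM, below the controls at 54.7 to 55.0 CPM.

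SRD5A3, the polyprenol reductase, had its high value in the library where SRD5A1 was lowest in scaled CPM. It was at 5.82, 6.12 and 6.05 CPM in the controls, 7.40, 6.44 and 11.4 CPM in the knockdown-labelled and 5.40, 5.68 and 5.46 CPM in the rescue libraries. In scaled CPM the 3 groups did not overlap, but the margin between the second knockdown-labelled library and the controls was small, and the counts were 50 to 105 a library. Without TMM scaling, knockdown-labelled libraries 1 and 2 were at 5.86 and 5.15 CPM, below the controls at 6.15 to 6.45 CPM, and library 3 was at 12.7 CPM. The log2 fold change was 0.49 against control (SE 0.247, interval -0.06 to 1.03, edgeR adjusted p = 0.312) and -0.61 for rescue against knockdown-labelled (SE 0.245, edgeR adjusted p = 0.135). Library 3 alone against control gave 0.90 (edgeR adjusted p = 0.0435), and rescue against library 3 alone gave -1.03 (edgeR adjusted p = 0.0150). Without it the values were 0.20 (edgeR adjusted p = 0.565) and -0.32 (edgeR adjusted p = 0.306). The log2 ratio of SRD5A1 to SRD5A3 was 2.08 in library 3 against 3.14 and 3.35 in the other two. In rescue libraries it was 0.26 above control (exact permutation p = 0.1, adjusted 0.3), with no overlap.

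HSD17B12 was the member that passed. It fell in the rescue group, by 1.74-fold against the knockdown-labelled group, to a mean of 89.0 ± 3.37 CPM (SD, n = 3) beside 90.5 ± 9.0 CPM in the controls. HSD17B12 reduces the ketoacyl intermediate in making long-chain fatty acids and can also reduce estrone to estradiol. It was at 89.2, 82.3 and 100.1 CPM in the controls, 157.6, 183.2 and 124.7 CPM in the knockdown-labelled and 85.5, 92.3 and 89.2 CPM in the rescue libraries. All 3 knockdown-labelled libraries were above all 6 others, and control and rescue overlapped. Rescue against knockdown-labelled gave a log2 fold change of -0.80 (95% interval -1.13 to -0.48, SE 0.147, edgeR adjusted p = 0.0131). Knockdown-labelled against control it was 0.78 (SE 0.147, interval 0.45 to 1.10, edgeR adjusted p = 0.0712), which did not pass. Rescue against control it was -0.02, with an interval of -0.35 to 0.30 (edgeR adjusted p = 0.976). The rescue call was lost without knockdown-labelled library 2 (edgeR adjusted p = 0.0584) and without rescue library 1, 2 or 3 (edgeR adjusted p = 0.0712, 0.0550 and 0.0601), and the direction held each time. Without knockdown-labelled library 3 the value was -0.94 (edgeR adjusted p = 6.01e-07), and with library 3 alone it was -0.46 (edgeR adjusted p = 0.0166). Against control, HSD17B12 rose by 0.91 without library 3 (edgeR adjusted p = 1.61e-06) and by 0.44 with library 3 alone (edgeR adjusted p = 0.0341), so that both sides of the split group had it higher. Across the 9 libraries its log2 CPM went with the mitochondrial share of the counts (r = 0.93), as did that of SULT2B1 (r = 0.90), beside 0.26 for STS and 0.51 for POR. Over the 8 libraries without knockdown-labelled library 3 these were 0.94, 0.92, 0.27 and 0.95, so that the value for POR depends on that library. Over all 9, the other members were at 0.70 for HSD17B11, 0.53 for SRD5A1, 0.39 for SRD5A3 and 0.24 for HSD17B4. Without that library they were at 0.77, 0.64, 0.83 and 0.25, so that the value for SRD5A3 also depends on it. These coefficients describe libraries that share their groups, and the part of the mitochondrial share was not tested.

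HSD17B4 and HSD17B11 did not pass in edgeR with all libraries. HSD17B4, with its hydratase and dehydrogenase activities in the peroxisome, was at 79.3, 76.1 and 81.7 CPM in the controls, 81.2, 71.3 and 94.2 CPM in the knockdown-labelled and 69.3, 69.7 and 57.1 CPM in the rescue libraries. The rescue libraries were below all others in scaled CPM, and the knockdown-labelled and control libraries overlapped (log2 fold change 0.06, edgeR adjusted p = 0.853). This change was -0.055 without library 3 (edgeR adjusted p = 0.729) and 0.23 with it alone. Without TMM scaling, knockdown-labelled libraries 1 and 2 were at 64.2 and 57.0 CPM. The rescue libraries were then at 75.2, 75.5 and 58.7 CPM, so that these groups overlapped. The log2 fold change of rescue against knockdown-labelled was -0.33 (SE 0.132, edgeR adjusted p = 0.131) and of rescue against control -0.27 (SE 0.132, edgeR adjusted p = 0.498). With library 3 as the lone knockdown-labelled library HSD17B4 fell in rescue by 0.50 (edgeR adjusted p = 0.0146), and without it the value was -0.22 (edgeR adjusted p = 0.110). HSD17B11, which oxidizes androstanediol-type steroids, was at 3.84, 4.18 and 4.72 CPM in the controls, 5.25, 6.44 and 3.26 CPM in the knockdown-labelled and 3.95, 3.59 and 2.68 CPM in the rescue libraries, on 27 to 73 counts. Its groups overlapped in all 3 comparisons, and its log2 fold changes were 0.23, -0.54 and -0.31 (edgeR adjusted p = 0.723, 0.277 and 0.804). Without library 3 the fall in the rescue group against the knockdown-labelled group passed, at -0.78 (edgeR adjusted p = 0.0446). It also passed in limma-voom with all libraries and sample quality weights (-0.75, adjusted p = 0.0275). Without TMM scaling, HSD17B11 was at 4.16 and 5.15 CPM in knockdown-labelled libraries 1 and 2, and at 2.76 to 4.29 CPM in the rescue libraries. The log2 ratio of HSD17B11 to HSD17B12 was lower in every knockdown-labelled library than in any control. The mean difference was -0.58 (exact permutation p = 0.1, adjusted 0.3), and -0.46 without library 3.

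POR, the flavoprotein that passes electrons from NADPH to microsomal P450s such as CYP17A1 and CYP51A1, was even in the controls and rescue libraries and split in the knockdown-labelled ones. It was at 88.2, 85.3 and 83.1 CPM in the controls, 108.6, 104.4 and 59.2 CPM in the knockdown-labelled and 89.2, 79.6 and 87.5 CPM in the rescue libraries. In scaled CPM, knockdown-labelled libraries 1 and 2 were the highest of the 9 and library 3 the lowest. Without TMM scaling, the controls were at 86.1 to 93.1 CPM and the rescue libraries at 86.2 to 96.8 CPM. Knockdown-labelled libraries 1 and 2 were then below all of these, at 86.0 and 83.4 CPM, and library 3 was still the lowest, at 65.6 CPM. Over all 3 the log2 fold change was 0.09 against control (edgeR adjusted p = 0.847) and -0.09 for rescue against knockdown-labelled (edgeR adjusted p = 0.811), means that hide opposite calls. Without library 3 POR rose by 0.32 against control (edgeR adjusted p = 0.0119). With library 3 alone it fell by 0.56 against control (edgeR adjusted p = 0.0106), a fit that takes the spread of the lone library from the other groups. Rescue against control was -0.00 (edgeR adjusted p = 1.00). The log2 ratio of HSD17B4 to POR was 0.67 in library 3 and -0.42 and -0.55 in libraries 1 and 2. In the rescue libraries it was below every control, with a mean difference of -0.28 (exact permutation p = 0.1, adjusted 0.3). Limma-voom with sample quality weights called POR higher than control in the knockdown-labelled group (0.27, adjusted p = 0.0277) and lower in rescue than there (-0.28, adjusted p = 0.0337).

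**Figure D2:**
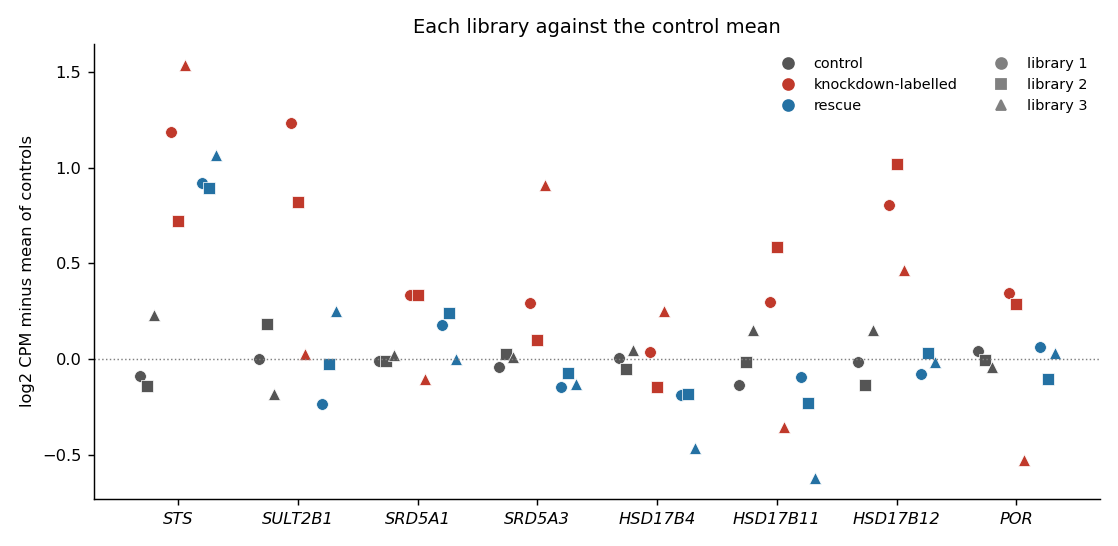
Log2 CPM of each gene in each library minus the mean of its controls, with colour for the group and symbol for the library number. In the knockdown-labelled libraries HSD17B12 (0.80, 1.02 and 0.47) and STS (1.18, 0.72 and 1.54) are above 0 throughout, while POR (0.34, 0.29 and -0.53) and HSD17B11 (0.30, 0.58 and -0.36) turn sign in library 3.

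Set side by side, the 3 comparisons gave few calls among the members. None of 8 passed for knockdown-labelled against control at an edgeR adjusted p under 0.05, where 0.00595% of the 16796 tested genes did, and 3 of 8 had an unadjusted p under 0.05 (background 19.1%). For rescue against knockdown-labelled 1 of 8 passed, HSD17B12, against 9.83% of all genes, and 4 of 8 had an unadjusted p under 0.05 (background 28.3%). For rescue against control 0 of 8 passed, against 0.149%, and 1 of 8, STS, had an unadjusted p under 0.05 (background 10.5%). In scaled CPM the groups did not overlap for 3 members, STS, SRD5A3 and HSD17B12, in knockdown-labelled against control (21.2% of all genes). In rescue against knockdown-labelled this held for 3, SRD5A3, HSD17B4 and HSD17B12 (28.6%), and in rescue against control for 3, STS, SRD5A3 and HSD17B4 (26.4%). Without TMM scaling the SRD5A3 groups overlapped in all 3 comparisons, and those of HSD17B4 in rescue against knockdown-labelled. All 8 estimates were above 0 for knockdown-labelled against control, with a median of 0.36 beside 0.02 over all tested genes, and all 8 were below 0 for rescue against knockdown-labelled, with a median of -0.44 beside -0.00. These comparisons share the knockdown-labelled libraries, so the opposite signs are not separate evidence. Scaled by library size alone, SRD5A1, HSD17B4, HSD17B11 and POR were below 0 in the first, SRD5A1 and POR were above 0 in the second, and the median of all genes moved to -0.21 and 0.24.

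**Figure D3:**
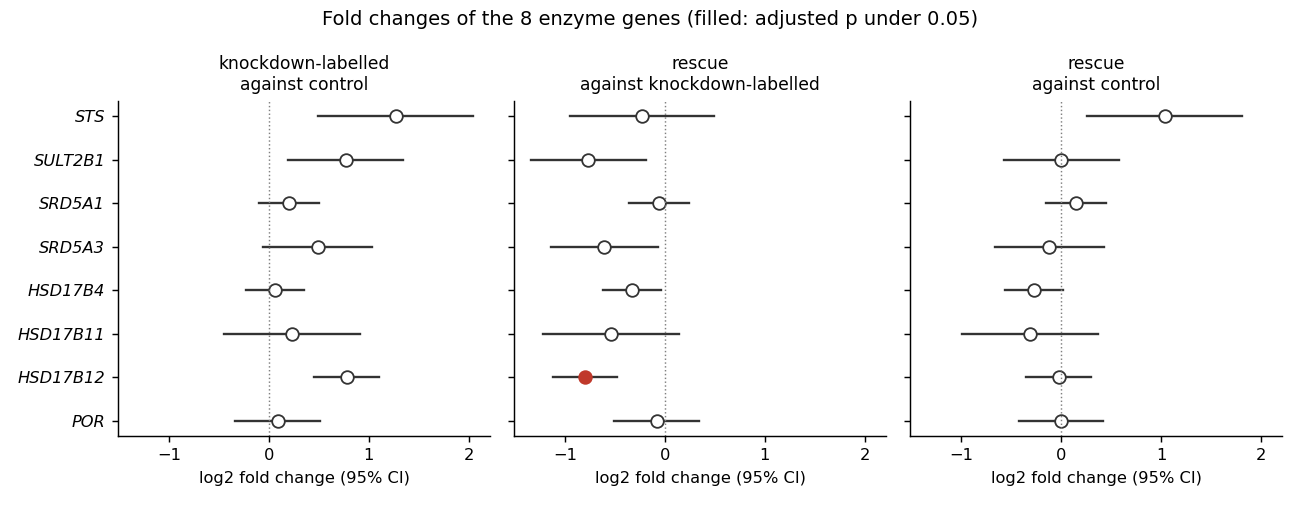
Log2 fold change of each gene in the 3 comparisons, with 95% confidence intervals from the edgeR fit that are not adjusted for the number of genes; the filled point has an adjusted p under 0.05. The interval of HSD17B12 for rescue against knockdown-labelled runs from -1.13 to -0.48, that of STS lies above 0 in both comparisons with control, and those of POR and SRD5A1 cross 0 in all 3.

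The count of members called changed with the test and with library 3. The DESeq2 Wald test called 2 of 8 in knockdown-labelled against control, STS and HSD17B12 (6.65% of all genes), 2 in rescue against knockdown-labelled, SULT2B1 and HSD17B12 (16.1%), and 0 in rescue against control (1.94%). Limma-voom called 0 of 8 (0.00595%), 1 of 8, HSD17B12 (10.2%), and 0 of 8 (0.0774%). With sample quality weights limma-voom called STS, SULT2B1, SRD5A1, HSD17B12 and POR (38.9% of all genes), SULT2B1, HSD17B11, HSD17B12 and POR (41.7%), and STS (9.47%). Without knockdown-labelled library 3, edgeR called SULT2B1, SRD5A1, HSD17B12 and POR higher than control (32.9% of all genes) and SULT2B1, HSD17B11, HSD17B12 and POR lower in rescue (39% of all genes). With library 3 as the only knockdown-labelled library it called STS, SRD5A3 and HSD17B12 higher and POR lower than control (11.4%), and SRD5A3, HSD17B4 and HSD17B12 lower and POR higher in rescue (19.5%). The fit without library 3 called HSD17B12 higher in the knockdown-labelled group in both comparisons, and the fit with library 3 alone gave the same direction. Both comparisons of a fit share its knockdown-labelled libraries, so they are not separate evidence.

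Of the genes around the members, 11 lists were read gene by gene. In knockdown-labelled against control 0 of their 99 tested genes passed in edgeR, 21 had an unadjusted p under 0.05 (19.1% of all genes did), and limma-voom called 0 and DESeq2 5, all higher (6.65% of all genes). In rescue against control edgeR, limma-voom and DESeq2 called 0, and 12 had an unadjusted p under 0.05 in edgeR (10.5% of all genes). In rescue against knockdown-labelled, 1 rose and 6 fell in edgeR, in 3 of the lists (9.83% of all genes passed), 1 rose and 5 fell in limma-voom (10.2%), and 5 rose and 11 fell in DESeq2 (16.1%). Without library 3 of the knockdown-labelled group 31 genes were higher and 8 lower than control, and 12 were higher and 31 lower in rescue, beside the 32.9% and 39% of all genes given above. With library 3 alone 3 of 101 were higher and 8 lower than control, and 16 were higher and 4 lower in rescue, beside 11.4% and 19.5% of all genes. Among 14 tested of 15 partners of POR and of cytochrome b5, CYP51A1, the sterol demethylase of cholesterol synthesis, rose from 2.84 ± 0.480 to 8.24 ± 1.47 CPM (SD, n = 3 each; log2 fold change 1.53, SE 0.285, edgeR adjusted p = 0.0140). CYB5B, the outer mitochondrial cytochrome b5, fell from 98.2 to 68.0 CPM (-0.53, edgeR adjusted p = 0.0148), and PGRMC1, a heme-binding membrane protein that binds P450s, fell from 461.7 to 343.3 CPM (-0.43, edgeR adjusted p = 0.0439). The median of this list was -0.10, with 4 of 14 above 0. Without knockdown-labelled library 3 the log2 fold change of CYP51A1 was 1.56 (edgeR adjusted p = 0.000616), and with library 3 alone it was 1.46 (edgeR adjusted p = 0.0174). CYB5B also passed both ways, at -0.57 and -0.44 (edgeR adjusted p = 6.24e-05 and 0.0166), while PGRMC1 passed without library 3 at -0.49 (edgeR adjusted p = 9.83e-05) and not with it alone, at -0.29 (edgeR adjusted p = 0.0639).

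Among 15 tested of 16 genes of peroxisomal oxidation, the pathway of HSD17B4, only SCP2 passed. SCP2, the sterol carrier and thiolase, fell from 104.3 ± 16.4 to 69.2 ± 1.13 CPM (-0.59, SE 0.127, edgeR adjusted p = 0.0208), and the list's median was -0.02. It was -0.72 without library 3 (edgeR adjusted p = 3.27e-06) and -0.28 with library 3 alone, which did not pass (edgeR adjusted p = 0.112). In the dolichol pathway of SRD5A3, 3 of 13 genes fell and none rose, where 9.83% of all tested genes passed in either direction. ALG5, which makes dolichyl-phosphate glucose, gave -0.77 (SE 0.203, edgeR adjusted p = 0.0397), ALG2, a mannosyltransferase, -0.40 (SE 0.112, adjusted p = 0.0468) and ALG14, part of the GlcNAc transferase, -0.95 (SE 0.265, adjusted p = 0.0464). All 3 passed without library 3 and none with library 3 alone, where ALG5 gave -0.21 (edgeR adjusted p = 0.457), ALG2 -0.26 (adjusted p = 0.211) and ALG14 -0.89 (adjusted p = 0.0649). Of these 13 genes, 1 was above 0 in rescue against knockdown-labelled (median -0.23), and 11 were above 0 in knockdown-labelled against control (median 0.24), from the same knockdown-labelled libraries.

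No gene of the other 8 lists passed in edgeR or limma-voom with all libraries, while DESeq2 called PAPSS2, ABCC1, SGSH and GALNS higher and ABHD5 lower in rescue against knockdown-labelled, and ABHD5 and ELOVL7 higher in knockdown-labelled against control. In fatty acid elongation, where HSD17B12 acts, 0 of 10 tested genes passed, with medians of 0.28 for knockdown-labelled against control and -0.25 for rescue against knockdown-labelled, and the smallest p in the latter was that of the elongase ELOVL6 (-0.32, edgeR adjusted p = 0.103). Without knockdown-labelled library 3, 3 of these 10 rose and 1 fell against control, where 32.9% of all genes passed. One that rose was TECR, the enoyl reductase that completes the elongation cycle, named after its value was seen (0.74, edgeR adjusted p = 7.72e-06). TECR was at 0.49 with all libraries (edgeR adjusted p = 0.246) and at -0.23 with library 3 alone (edgeR adjusted p = 0.269), on the other side of 0. In the lipid droplet list the smallest was ABHD5, the coactivator of triglyceride lipase (-0.50, adjusted p = 0.0588). In the sulfate cycle, 0 of 10 tested genes passed and PAPSS2, which makes the sulfate donor, was closest (0.67, adjusted p = 0.0614), in the sulfatase family SGSH (0.50, adjusted p = 0.0581) and among steroid sulfate carriers ABCC1 (0.37, adjusted p = 0.0867). Among the other HSD17B genes it was HSD17B7 (-0.32, adjusted p = 0.163), among the other androgen reductases RDH16 (1.16, adjusted p = 0.110) and in steroid synthesis FDX1 (-0.47, adjusted p = 0.113).

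Several enzymes of steroid synthesis and metabolism had no or hardly any counts. SRD5A2, AKR1C2, AKR1C3, AKR1C4, HSD17B3, CYP11B1 and CYP19A1 had 0 counts in all 9 libraries, which allows up to 3 counts a library, or 0.211 to 0.369 CPM of a library's unscaled total. CYP17A1, HSD3B1 and HSD3B2 had at most 2 counts in any library, and SULT2A1, the liver-type sulfotransferase for dehydroepiandrosterone, at most 1. The carrier SLCO2B1 had at most 1. Multiply aligned reads were left out of these counts, and sequence sharing with related genes was not checked for these enzymes. The members SRD5A1 and SULT2B1, by contrast, were at 19.6 CPM or more in every library.

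**Figure D4:**
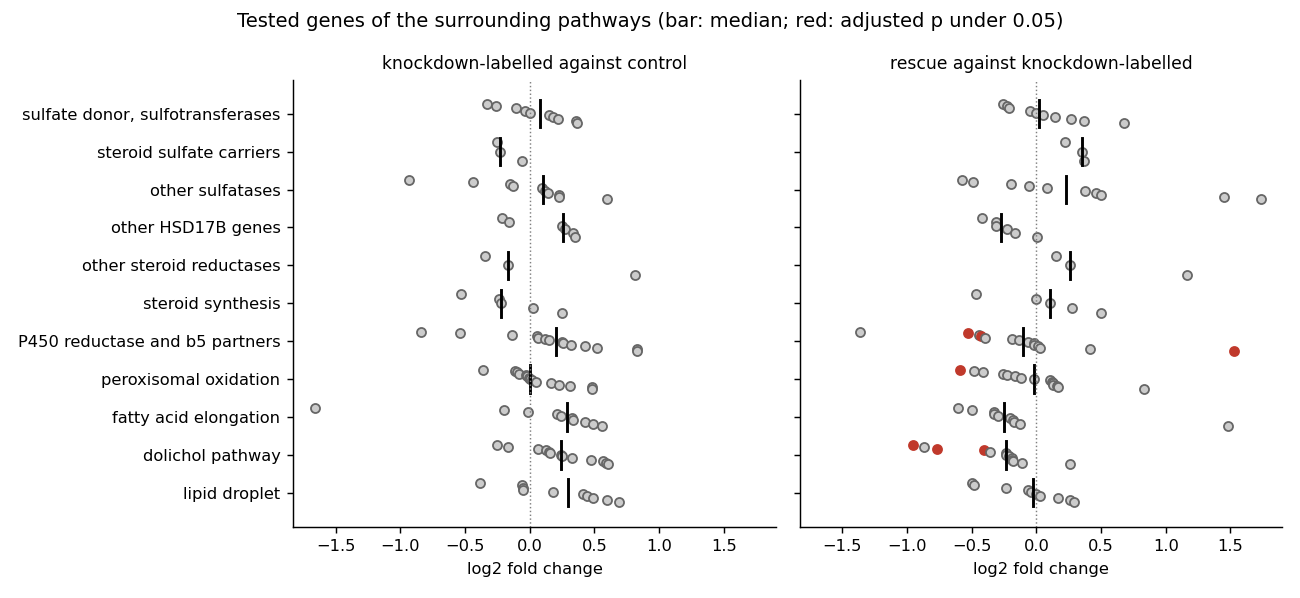
Log2 fold changes of the tested genes of the 11 pathway lists, for knockdown-labelled against control on the left and rescue against knockdown-labelled on the right, with 1 point per gene, a bar at each list's median and red points for an edgeR adjusted p under 0.05. The left panel has no red point, and the right has CYP51A1 at 1.53 and CYB5B, PGRMC1, SCP2, ALG5, ALG2 and ALG14 between -0.95 and -0.40.

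For each member the genes with the most similar course over the 9 libraries were found by Pearson r of log2 CPM among the protein-coding genes with a mean of at least 5 CPM. The closest to HSD17B12 was UGP2, which makes UDP-glucose (r = 0.997), at 43.3, 39.4 and 46.5 CPM in the controls, 66.6, 72.6 and 53.6 CPM in the knockdown-labelled and 42.2, 43.4 and 42.3 CPM in the rescue libraries, followed by LEPROTL1 (0.992) and CCNB1IP1 (0.990). The closest to POR was the glutamine transporter SLC1A5 (0.996), which was at 150.1 CPM in knockdown-labelled library 3 and at 224.3 to 310.6 CPM in the others, then MCRIP1 and CIAO2B (both 0.994). SULT2B1 was closest to NDUFA6, a subunit of respiratory complex I (0.989), RPL30 (0.974) and FAU (0.973), a mitochondrial respiratory and 2 ribosomal protein genes. STS was closest to the copper transporter ATP7A (0.942), PLBD2 (0.939) and GTF2H2C (0.934). SRD5A1 was closest to CRYM (0.960), IRX3 (0.949) and KLHL9 (0.943), and SRD5A3 to the lysosomal peptidase TPP1 (0.963), GUF1 (0.958) and MSH6 (0.958). HSD17B4 was closest to ZBED5 (0.977), UBAP2L (0.960) and FAM76B (0.958), and HSD17B11 to CPSF4L (0.959), ERI3 (0.947) and TMEM38B (0.943). These coefficients are over 9 libraries that share their grouping and the split of the knockdown-labelled group, and each is the highest out of at least 10282 genes compared.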

How the data were processed

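Total RNA from 9 libraries was sequenced paired-end, per the labels' protocols. The submitters' processing notes list FastQC, cutadapt, STAR, HTSeq and hg38, and no source used here gives versions, settings or strand use. The authors deposited raw whole-number counts of reads for each gene. HTSeq's summary entries, which name no gene, were left out of library sizes and tests. Reads outside any feature made up 43.7% to 48.7% of all entries, ambiguous reads 2.36% to 3.14% and multiply aligned reads 7.67% to 11.6%.

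All 9 libraries entered a single edgeR 4.0.16 quasi-likelihood fit in R 4.3.3, with TMM factors, the filterByExpr default minimum count (10) and 6 residual degrees of freedom. P-values were adjusted by Benjamini-Hochberg over 16796 genes, with a threshold of 0.05, and the fit was tested on simulated data. SE was taken as the absolute log2 fold change over the root of F. RPKM uses union exon lengths from GENCODE 29. Alternatives were DESeq2 1.42.0, limma 3.58.1, other scalings and filters, and libraries left out. Fits with a lone knockdown-labelled library take its spread from the other groups. The members and lists were chosen with earlier results of these data known. All members are named in every comparison; of each list, every gene that passed (at most 4) or else the 1 with the smallest p; and, for each member, the 3 genes of highest r.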

Additional observations from a re-analysis of the deposited data

How the results depend on the processing

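The number of members past the threshold was 0, 1 and 0 for knockdown-labelled against control, rescue against knockdown-labelled and rescue against control. It became 2, 2 and 0 with no filter on low counts, where 1045, 2636 and 401 of 35046 genes passed. The DESeq2 Wald test also gave 2, 2 and 0 (6.65%, 16.1% and 1.94% of all genes). Limma-voom with sample quality weights gave 5, 4 and 1 (38.9%, 41.7% and 9.47% of all genes). The second count was 0 when only the groups compared were fitted, where 7 of 16418 genes passed. It was also 0 at an adjusted p under 0.01, where 162 of 16796 passed. Leaving out each library in turn gave 0 to 4 in the first, where 0 to 5691 of all genes passed. In the second it gave 0 to 4, where 134 to 6745 passed. The 4 in each came without knockdown-labelled library 3 (32.9% and 39% of all genes). HSD17B12 in rescue against knockdown-labelled kept its sign in all 20 alternatives (log2 fold change -0.95 to -0.46, adjusted p from 6.01e-07 to 0.0712) and its call in 15 of them. Over all genes, library size alone changed the 745 higher and 906 lower calls of that comparison to 1327 and 230. A TMM scaling without mitochondrial and ribosomal protein genes was added after seeing the data. Low counts of STS, SRD5A3 and HSD17B11 limit what can be detected for them.

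The following values changed sign, among them those of SULT2B1, HSD17B11 and POR with library 3 alone, where POR was called in the opposite direction to the fit without it; the cause was not tested. With library size alone, knockdown-labelled against control gave -0.052 for SRD5A1, -0.14 for HSD17B4, -0.041 for HSD17B11 and -0.19 for POR; rescue against knockdown-labelled gave 0.22 for SRD5A1 and 0.22 for POR; rescue against control gave 0.020 for SULT2B1, 0.00037 for HSD17B12 and 0.022 for POR. SULT2B1 in rescue against control was 0.00054 with DESeq2 size factors, 0.0019 with a filter of 1 CPM in 3 libraries and 0.0022 with the DESeq2 Wald test. POR there was 0.0022 with that filter and 0.0037 with only the groups compared. Quality weights gave -0.058 for HSD17B4 in knockdown-labelled against control, 0.059 for STS in rescue against knockdown-labelled and 0.011 for HSD17B12 in rescue against control. Library 3 as the only knockdown-labelled library gave -0.0079 for SULT2B1, -0.13 for SRD5A1, -0.41 for HSD17B11 and -0.56 for POR against control, and 0.00068, 0.27, 0.10 and 0.55 for them in rescue against it.

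Leaving out each library in turn, knockdown-labelled against control ranged from -0.055 to 0.15 for HSD17B4, -0.0079 to 0.47 for HSD17B11 and -0.060 to 0.32 for POR. Rescue against knockdown-labelled ranged from -0.44 to 0.0017 for STS, -0.19 to 0.023 for SRD5A1 and -0.32 to 0.057 for POR. Rescue against control ranged from -0.13 to 0.11 for SULT2B1, -0.092 to 0.052 for HSD17B12 and -0.035 to 0.047 for POR. Among the log2 ratios, knockdown-labelled against control ranged from -0.014 to 0.82 for STS to SULT2B1, -0.50 to 0.13 for SRD5A1 to SRD5A3 and -0.37 to 0.24 for HSD17B4 to POR, and rescue against knockdown-labelled from -0.52 to 0.094 for HSD17B4 to POR.

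No pairing by replicate number was seen: over the 9 same-numbered pairs the correlation of deviations from the group means was -0.355 to 0.0784. Differently numbered pairs ran from -0.162 to 0.269. Deviations within a group of 3 sum to 0, so this check cannot exclude pairing. With the replicate block, 0, 1 and 0 members passed in the 3 comparisons, as without it, and HSD17B12 in rescue against knockdown-labelled had an adjusted p of 0.0467. In rescue against control the replicate block gave 0.024 for SULT2B1 and 0.0018 for POR. The block lowered the calls over all genes from 1651 to 442 in rescue against knockdown-labelled and raised no member past the threshold.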
